A study of Mus musculus with 6 samples.

Results

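The genes described here encode the BMP, activin and TGF-beta signalling system of the embryonic mouse gut: 37 genes, chosen by name, of the 23233 gene lines in the deposited table. Each of the 37 was found on a line of its own, and the authors' test covered all 37, so no member was lost to a filter on low values. The members are 15 ligands, 9 receptors, 6 secreted antagonists or binding proteins, 3 membrane or intracellular inhibitors and 4 target genes. Whole guts of E10.5 mouse embryos were dissected, with 3 samples labelled Wildtype and 3 labelled Ret null, homozygous for a null allele of the receptor tyrosine kinase gene Ret. The strain label is C57BL/6J for all 6 samples, no treatment is named, and the embryos are described as male. The labels give neither the part of Ret that the null allele lacks nor whether a sample was 1 embryo or several. The table holds 1 FPKM value per genotype, that is, fragments scaled to transcript length and to the size of the library, and no value per sample. The spread between the 3 samples of a genotype therefore cannot be shown, and depth is unknown.

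Ligands of this family are secreted dimers that bring together type I and type II receptor kinases at the cell surface. BMPs then act through Smad1, Smad5 and Smad9, and activins and TGF-betas through Smad2 and Smad3, in each case with Smad4. Secreted proteins such as noggin, chordin, gremlin and follistatin hold ligands away from their receptors, the inhibitory Smads act as feedback, and the Id genes are direct BMP targets. In the gut, BMP signalling is known to take part in patterning the mesenchyme and smooth muscle and in the migration and differentiation of enteric neural crest cells, the cells that depend on Ret.

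Ret stood at 8.80 FPKM in wildtype gut and 0.0354 FPKM in Ret null gut, which goes with the labels. Other tissues differed as well. Of 10 enteric crest and neuron markers 9 fell, and their summed level went from 110 to 52.5 FPKM. Markers of somite and skeletal muscle fell in 6 of 7 tested cases (summed level of all 9 listed 68.9 to 13.1 FPKM), and markers of the nephric and gonadal ridge in 6 of 6 (all 7 listed, 74.0 to 34.5 FPKM). Of 6 endothelial markers 3 fell (161 to 132 FPKM), and of 4 tested cardiac markers 2 fell and 1 rose (all 6 listed, 16.4 to 10.7 FPKM). All 10 hepatic markers rose (34.4 to 348 FPKM), as did 7 of 9 gut mesenchyme and smooth muscle markers (358 to 816 FPKM) and 8 of 9 gut epithelium markers (88.4 to 202 FPKM). No marker in these lists was listed at 0 in either genotype. These rises and falls use the authors' deposited q below 0.05. With p taken from their test statistic as a normal deviate and adjusted over all lines with a statistic, fewer held. Then 7 enteric crest and neuron, 6 somite and skeletal muscle, 4 nephric and gonadal ridge, 0 endothelial and 2 cardiac markers were lower. The higher ones were 10 hepatic, 7 gut mesenchyme and smooth muscle, 7 gut epithelium and 1 cardiac. Although the embryos are described as male, Xist, which is transcribed from the inactive X of female cells, went from 0.136 to 31.8 FPKM. The Y-linked genes Ddx3y, Eif2s3y, Kdm5d and Uty stood in Ret null gut at 58.3%, 61.0%, 53.0% and 50.2% of wildtype. The part of these tissue and sex differences in the values below was not tested, and in whole guts fewer cells of a type and less RNA per cell cannot be told apart.

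Values after ± are standard errors on the log2 scale, derived from the authors' test statistic, and every fold change is Ret null relative to wildtype. A gene is said to rise or fall only if its q in the authors' deposited table was below 0.05. Of the 37 members, 5 fell (13.5%), 5 rose (13.5%) and 27 did not pass. Of all 13430 tested lines in the authors' deposited table, 8.88% fell, 5.69% rose and 14.6% changed in either direction, against 27.0% of the members. Because the members were chosen with earlier results of these data known, the difference between these shares is a description and not a test. The fallers were Bmpr2, Acvr2b, Inhbb, Tgfb2 and Id3, and the risers were Grem1, Bmpr1b, Gdf6, Tgfb3 and Id4. Most of the changes were small: 32 of the 37 members differed by less than 0.5 on the log2 scale, and 3 differed at least 2-fold, which is 8.11% beside 5.30% of all tested lines above 0 in both genotypes. The median log2 fold change was -0.02 for the members and 0.01 for those lines, and the median absolute log2 fold change was 0.24 and 0.14. All members were above 1 FPKM in both genotypes. Of the tested lines at 1 FPKM or more in both, 7.78% fell, 5.03% rose and 2.70% differed at least 2-fold. Their median absolute log2 fold change was 0.13. The calls other than Bmpr2 and Inhbb rest on how the authors obtained p: with p taken from their test statistic as a normal deviate and adjusted over all lines with a statistic, 2 members were lower and 0 higher, where 2.78% and 1.72% of all lines were. By the authors' deposited table, 9 members were lower and 9 higher at an unadjusted p under 0.05, beside 13.5% and 9.91% of all tested lines. With q below 0.01 in the authors' deposited table, 3 members fell and 2 rose, beside 6.10% and 3.72% of all tested lines, and with a 1.5-fold minimum 2 fell and 1 rose, beside 5.23% and 3.40%.

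**Figure D1:**
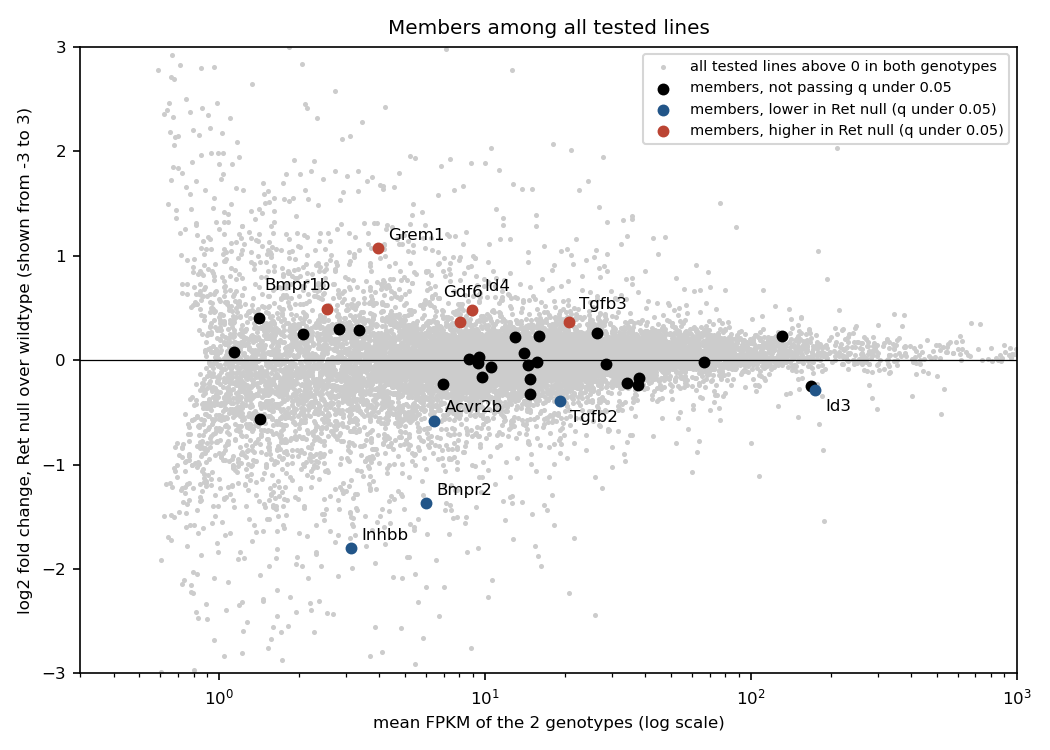
Log2 fold change (Ret null over wildtype, shown from -3 to 3) against the mean FPKM of both genotypes on a log scale, with all tested lines above 0 in both genotypes in grey and the 37 members as larger points. Inhbb (-1.80) and Bmpr2 (-1.37) lie lowest and Grem1 (1.07) highest among the members, and 32 members lie within 0.5 of no change.

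Promoters of 6 members are shown. Inhbb, Bmpr2 and Grem1 are the ligand, the receptor and the antagonist with the largest changes among the members. Id3 and Id4 are target genes called in opposite directions, and Id2 is a target gene that did not pass. RefSeq (GRCm38.p6, the same build as mm10) gives for each 250 bases before and 50 after the annotated start. The windows are chr1:119422199-119422498 (minus strand) for Inhbb, chr1:59764029-59764328 (plus) for Bmpr2, chr2:113758599-113758898 (minus) for Grem1, chr12:25096043-25096342 (minus) for Id2, chr4:136143572-136143871 (plus) for Id3 and chr13:48260866-48261165 (plus) for Id4. Each runs from before the annotated start into the first 50 bases of the transcript, and is written 5′ to 3′ along the gene. Capitals mark GGCGCC, a GC-rich Smad motif, and CAGAC or its complement GTCTG, the Smad box, searched on both strands.
Inhbb: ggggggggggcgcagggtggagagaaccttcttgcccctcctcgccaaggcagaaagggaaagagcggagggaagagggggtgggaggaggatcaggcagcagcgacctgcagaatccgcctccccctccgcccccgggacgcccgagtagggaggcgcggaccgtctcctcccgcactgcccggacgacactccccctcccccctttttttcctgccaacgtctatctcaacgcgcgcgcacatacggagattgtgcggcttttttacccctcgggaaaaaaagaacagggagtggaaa
Bmpr2: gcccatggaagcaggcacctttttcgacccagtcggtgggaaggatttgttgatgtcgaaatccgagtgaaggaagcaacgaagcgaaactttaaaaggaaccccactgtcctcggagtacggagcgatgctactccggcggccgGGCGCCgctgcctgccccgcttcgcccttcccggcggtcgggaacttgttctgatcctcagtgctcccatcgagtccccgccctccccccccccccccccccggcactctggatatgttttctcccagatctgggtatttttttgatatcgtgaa
Grem1: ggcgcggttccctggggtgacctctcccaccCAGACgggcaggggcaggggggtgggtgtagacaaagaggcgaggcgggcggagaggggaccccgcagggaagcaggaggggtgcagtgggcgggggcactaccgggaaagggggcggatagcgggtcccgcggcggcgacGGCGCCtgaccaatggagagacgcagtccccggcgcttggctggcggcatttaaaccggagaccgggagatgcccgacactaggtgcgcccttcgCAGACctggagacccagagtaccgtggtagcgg
Id2: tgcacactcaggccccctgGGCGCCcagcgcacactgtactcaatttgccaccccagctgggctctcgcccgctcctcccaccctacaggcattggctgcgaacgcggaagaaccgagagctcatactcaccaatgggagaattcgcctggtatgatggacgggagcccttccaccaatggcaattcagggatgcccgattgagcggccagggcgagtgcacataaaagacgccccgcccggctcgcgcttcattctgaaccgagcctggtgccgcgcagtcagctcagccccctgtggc
Id3: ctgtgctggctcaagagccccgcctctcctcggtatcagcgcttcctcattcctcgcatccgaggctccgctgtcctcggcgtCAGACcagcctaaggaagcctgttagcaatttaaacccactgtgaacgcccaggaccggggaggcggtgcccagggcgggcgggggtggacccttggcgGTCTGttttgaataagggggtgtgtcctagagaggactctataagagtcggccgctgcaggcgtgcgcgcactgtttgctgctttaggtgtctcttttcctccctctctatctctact
Id4: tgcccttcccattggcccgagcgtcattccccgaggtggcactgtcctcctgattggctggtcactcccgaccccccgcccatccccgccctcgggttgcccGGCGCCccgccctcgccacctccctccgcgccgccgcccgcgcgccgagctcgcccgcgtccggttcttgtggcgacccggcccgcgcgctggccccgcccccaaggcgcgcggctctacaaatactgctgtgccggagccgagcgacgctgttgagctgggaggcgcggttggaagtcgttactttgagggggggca
GGCGCC occurs once in Bmpr2, Grem1, Id2 and Id4, starting 105, 78, 231 and 148 bases before the start site, and not in Inhbb or Id3. CAGAC or GTCTG occurs at 2 places in Grem1 and 2 in Id3, and in none of the others shown, so that the Inhbb window holds neither motif. No capitals of the 2 motifs overlap. The 26 members with a promoter entry have 30 windows, of which 8 (26.7%) hold GGCGCC and 16 (53.3%) hold CAGAC on either strand, beside 11.9% and 49.6% of all 32851 promoter windows of 300 bases. The median GC content is 64.2% over the members' windows and 52.7% over all windows. GGCGCC is in 1 of the 5 members with an entry that fell (Bmpr2), 2 of 3 that rose (Grem1 and Id4) and 5 of 18 that did not pass. CAGAC is in 3 of the 5, 2 of the 3 and 9 of the 18. These matches describe letters in the windows only.

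Among the 15 ligands, 2 fell (13.3%), 2 rose (13.3%) and 11 did not pass. Of all tested lines 8.88% fell and 5.69% rose. The 6 BMP ligand genes had log2 fold changes from -0.56 to 0.40. Bmp4, the most abundant of them and a mesenchymal signal of the gut wall whose line overlaps that of Gm15217, stood at 28.9 FPKM in wildtype gut and 28.1 FPKM in Ret null gut (log2 fold change -0.04 ± 0.20). Bmp7 stood at 13.7 and 14.4 FPKM (0.07 ± 0.22) and Bmp5 at 10.3 and 9.21 FPKM (-0.16 ± 0.23). These 3 genes lay within their errors of no change. Bmp2, Bmp3 and Bmp6 were all under 3 FPKM in both genotypes. Bmp2 had 1.69 and 1.15 FPKM (-0.56 ± 0.47), the largest difference of any member that did not pass, while Bmp3 had 1.21 and 1.60 FPKM (0.40 ± 0.44) and Bmp6 had 1.88 and 2.23 FPKM (0.25 ± 0.41). The 6 BMP genes summed to 57.7 FPKM in wildtype gut and 56.7 FPKM in Ret null gut, and Bmp4 made up 50.1% and 49.6% of that sum.

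Of the 3 growth and differentiation factor genes, Gdf6, a BMP-like ligand of joints and eye, rose from 7.04 to 9.08 FPKM (0.37 ± 0.22). Its q of 0.0498 in the authors' deposited table was the closest to the threshold of all called members. The nearest member on the other side was the receptor gene Bmpr1a, at q = 0.111 in the authors' deposited table. Gdf10, a relative of Bmp3, stood at 15.6 and 13.8 FPKM (-0.18 ± 0.20). Gdf11, an activin-like ligand of axial patterning, stood at 9.40 and 9.58 FPKM (0.03 ± 0.25). Neither passed.

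Inhbb, which encodes the beta B subunit of activin B and inhibin B, had the largest change of all 37 members. It fell from 4.84 to 1.39 FPKM, 3.49-fold (-1.80 ± 0.32 on the log2 scale). Its q of 0.000775 in the authors' deposited table is the lowest held there. Its line lies on chromosome 1, 119415465 to 119422248 (mm10). Its log2 fold change was -1.29 once 1 FPKM was added to each value, and with a minimum of 5 FPKM in the higher genotype it was no longer called. Inha, the alpha subunit that turns activins into inhibins, stood at 16.4 and 13.1 FPKM (-0.32 ± 0.23) and did not pass. Inhba, the beta A subunit, was the lowest member in wildtype, at 1.10 FPKM, and had 1.16 FPKM in Ret null gut with the widest error of any member (0.08 ± 0.60). The 3 subunit genes summed to 22.3 FPKM in wildtype gut and 15.6 FPKM in Ret null gut. The difference, Ret null minus wildtype, was -3.45 FPKM for Inhbb and -3.27 FPKM for Inha, whose unadjusted p was 0.0286 in the authors' deposited table. The share of Inhbb in the sum went from 21.7% to 8.86%. The nephric and gonadal ridge markers, genes of a tissue beside the gut, fell in the same comparison, as given above.

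Among the 3 TGF-beta genes, Tgfb2 and Tgfb3 changed in opposite directions. Tgfb2 fell from 21.7 to 16.5 FPKM (-0.39 ± 0.18, q = 0.00318 in the authors' deposited table), and Tgfb3 rose from 18.0 to 23.3 FPKM (0.37 ± 0.18, q = 0.00881 in the authors' deposited table). Tgfb1 stood at 8.66 and 8.71 FPKM (0.01 ± 0.25). The order of the upper pair changed: Tgfb2 made up 44.8% of the 3 genes' summed FPKM in wildtype gut and 34.0% in Ret null gut, and Tgfb3 37.2% and 48.0%. Their sum was 48.3 FPKM in wildtype gut and 48.6 FPKM in Ret null gut. Both changes were close to 1.3-fold (1.31 and 1.30), and neither call held with p from the test statistic, where the adjusted p was 0.292 for Tgfb2 and 0.399 for Tgfb3. Tgfb2 lies on chromosome 1, 186623186 to 186705992, and Tgfb3 on chromosome 12, 86056743 to 86079041 (mm10), the latter at exactly the RefSeq gene's ends.

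**Figure D2:**
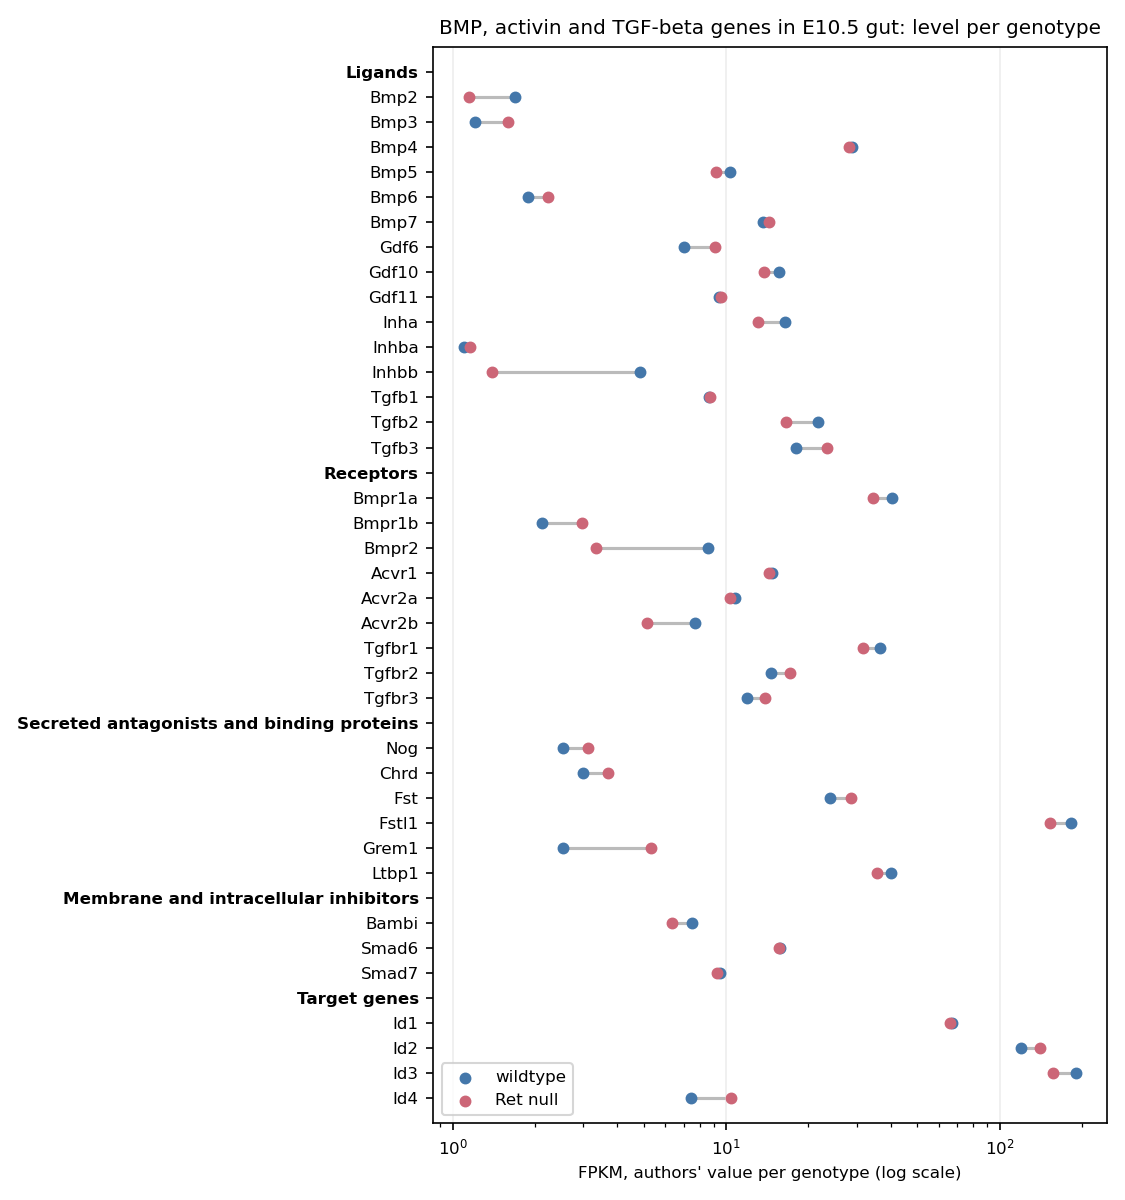
FPKM per genotype (log scale) for each of the 37 members by role, wildtype in blue and Ret null in red, as the authors' values without a spread. The widest gaps are at Inhbb (4.84 and 1.39), Bmpr2 (8.62 and 3.35) and Grem1 (2.54 and 5.33), while Bmp4, Acvr1, Smad6, Smad7 and Id1 have nearly overlapping points.

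Among the 9 receptors, 2 fell (22.2%), 1 rose (11.1%) and 6 did not pass, beside 8.88% and 5.69% of all tested lines. Bmpr2, the type II receptor that binds BMPs, fell from 8.62 to 3.35 FPKM, 2.58-fold (-1.37 ± 0.26, q = 0.000775 in the authors' deposited table). With p from the test statistic its adjusted p was 1.77e-05. The line covers chromosome 1 from 59764637 to 59870859 (mm10). It starts after and ends before the RefSeq gene, which runs from 59764279 to 59878081. Acvr2b, a type II receptor for activins that BMPs also use, fell from 7.71 to 5.14 FPKM (-0.58 ± 0.30, q = 0.0190 in the authors' deposited table). With p from the test statistic its adjusted p was 0.459. Its close relative Acvr2a stood at 10.8 and 10.3 FPKM (-0.07 ± 0.23) and overlaps the line of Orc4, so part of its reads may be uncertain. The 3 type II receptors for BMPs and activins summed to 27.1 FPKM in wildtype gut and 18.8 FPKM in Ret null gut. Bmpr2 made up 31.8% of that sum in wildtype and 17.8% in Ret null gut, and Acvr2a 39.8% and 54.8%. Tgfbr2, the type II receptor for TGF-betas, was the highest of the 4 type II receptors among the members in both genotypes, at 14.6 and 17.2 FPKM (0.23 ± 0.19), and did not pass.

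The type I receptors are the ones that type II receptors phosphorylate. Bmpr1a, the main BMP type I receptor by level here, stood at 40.5 and 34.4 FPKM (-0.24 ± 0.17). Tgfbr1, the TGF-beta type I receptor, stood at 36.7 and 31.6 FPKM (-0.22 ± 0.17), and Acvr1, which BMPs also use, at 14.7 and 14.3 FPKM (-0.05 ± 0.21). None of these 3 passed. Bmpr1b, a BMP type I receptor best known from cartilage, rose from 2.12 to 2.97 FPKM (0.49 ± 0.28, q = 0.0377 in the authors' deposited table). It was the lowest receptor among the members in both genotypes and 2.25% of the members' type I sum in wildtype. With p from the test statistic its adjusted p was 0.613. The 4 type I receptors among the members summed to 94.1 FPKM in wildtype gut and 83.2 FPKM in Ret null gut (88.4% of wildtype). The 4 type II receptors among the members, Tgfbr2 included, summed to 41.8 and 36.0 FPKM (86.1%). The type I sum leaves out Acvr1b (12.6 and 14.2 FPKM), Acvrl1 (9.06 and 8.95 FPKM) and Acvr1c (0.340 and 0.156 FPKM). The type II sum leaves out Amhr2 (6.55 and 2.22 FPKM). The co-receptor Tgfbr3, or betaglycan, which presents TGF-beta2 and inhibin, stood at 11.9 and 13.9 FPKM (0.22 ± 0.18) and did not pass.

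**Figure D3:**
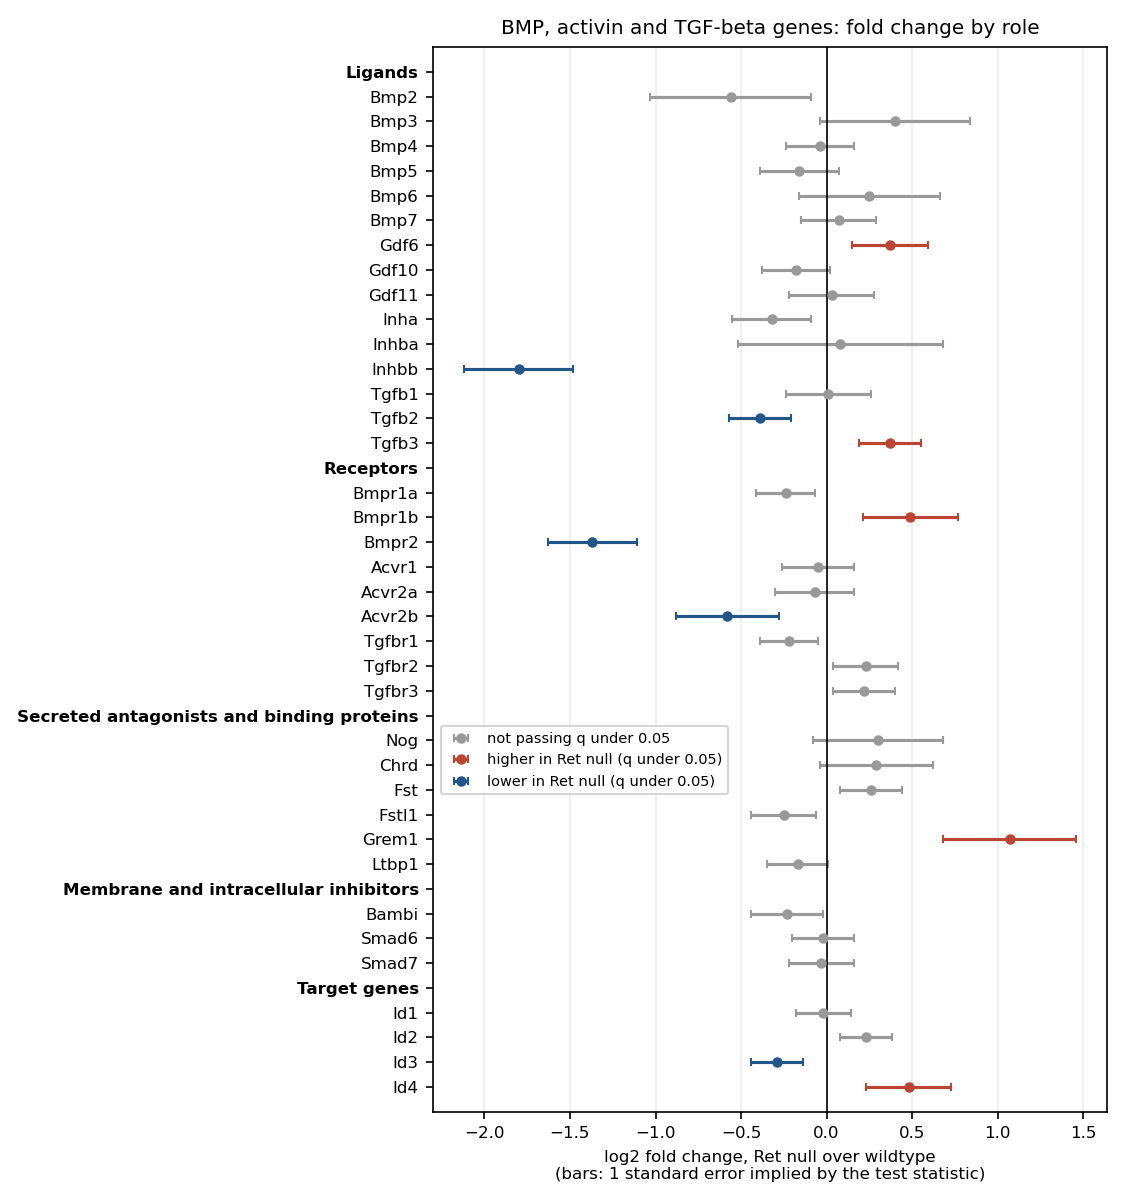
Log2 fold change (Ret null over wildtype) of each member by role, with bars of 1 standard error implied by the authors' test statistic. The 5 fallers are blue, the 5 risers red and the 27 members that did not pass grey, and the bars of Inhbb and Bmpr2 are the farthest from 0.

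Of the 6 secreted antagonists and binding proteins, 1 rose, 0 fell and 5 did not pass. By the authors' deposited table, 1 was lower and 2 higher at an unadjusted p under 0.05, a threshold that 13.5% and 9.91% of all tested lines passed. With p from the test statistic, 0 were lower and 0 higher. Grem1, which encodes gremlin, a BMP antagonist of mesenchyme, rose from 2.54 to 5.33 FPKM, 2.10-fold (1.07 ± 0.39, q = 0.00145 in the authors' deposited table). Its line lies on chromosome 2, 113748675 to 113758648 (mm10), exactly the RefSeq gene. With p from the test statistic its adjusted p was 0.0996. Of 9 gut mesenchyme and smooth muscle markers 7 rose in the same comparison, and their part in the Grem1 values was not tested. The BMP antagonist members Nog and Chrd did not pass and lay within their errors of no change. Nog, or noggin, had 2.53 and 3.13 FPKM (0.30 ± 0.38), and Chrd, or chordin, had 3.01 and 3.69 FPKM (0.29 ± 0.33) on a line that overlaps Thpo. Fst, or follistatin, which binds activins, stood at 23.9 and 28.7 FPKM (0.26 ± 0.18). Fstl1, a follistatin-like matrix glycoprotein and the second most abundant member, stood at 183 and 153 FPKM (-0.25 ± 0.19). Ltbp1, which holds latent TGF-beta in the matrix, stood at 40.1 and 35.6 FPKM (-0.17 ± 0.18).

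None of the 3 membrane and intracellular inhibitors passed in the authors' test, at an unadjusted p under 0.05 in the authors' deposited table or with p from the test statistic. Smad6, the inhibitory Smad that acts mainly on BMP signals, stood at 15.8 and 15.6 FPKM (-0.02 ± 0.18). Smad7, which acts on TGF-beta and BMP signals, stood at 9.49 and 9.28 FPKM (-0.03 ± 0.19). Bambi, a pseudoreceptor without a kinase domain, stood at 7.48 and 6.36 FPKM (-0.23 ± 0.21). Both inhibitory Smad genes are known to be induced by the pathway. Their values differed between the genotypes by far less than their errors, and the activity of the pathway was not tested.

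The Id genes encode helix-loop-helix proteins that cannot bind DNA and block the factors they pair with. Of the 4, 1 fell, 1 rose and 2 did not pass, where 8.88% and 5.69% of all tested lines fell and rose. Id3 was the most abundant of all 37 members in both genotypes and fell from 191 to 157 FPKM (-0.29 ± 0.15, q = 0.0341 in the authors' deposited table), the smallest change of any called member. Id4, the least abundant of the 4, rose from 7.43 to 10.4 FPKM (0.48 ± 0.25, q = 0.0440 in the authors' deposited table). Id2 stood at 120 and 141 FPKM (0.23 ± 0.15) and Id1 at 67.2 and 66.1 FPKM (-0.02 ± 0.16), and neither passed. The adjusted p from the test statistic was 0.483 for Id3 and 0.501 for Id4. The 4 genes summed to 386 FPKM in wildtype gut and 374 FPKM in Ret null gut, and Id3 made up 49.6% and 41.9% of the sum. Id3 lies on chromosome 4, 136143822 to 136145392, and Id4 on chromosome 13, 48261427 to 48264036 (mm10). The Id4 line starts after and ends before the RefSeq gene, which runs from 48261116 to 48266028.

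**Figure D4:**
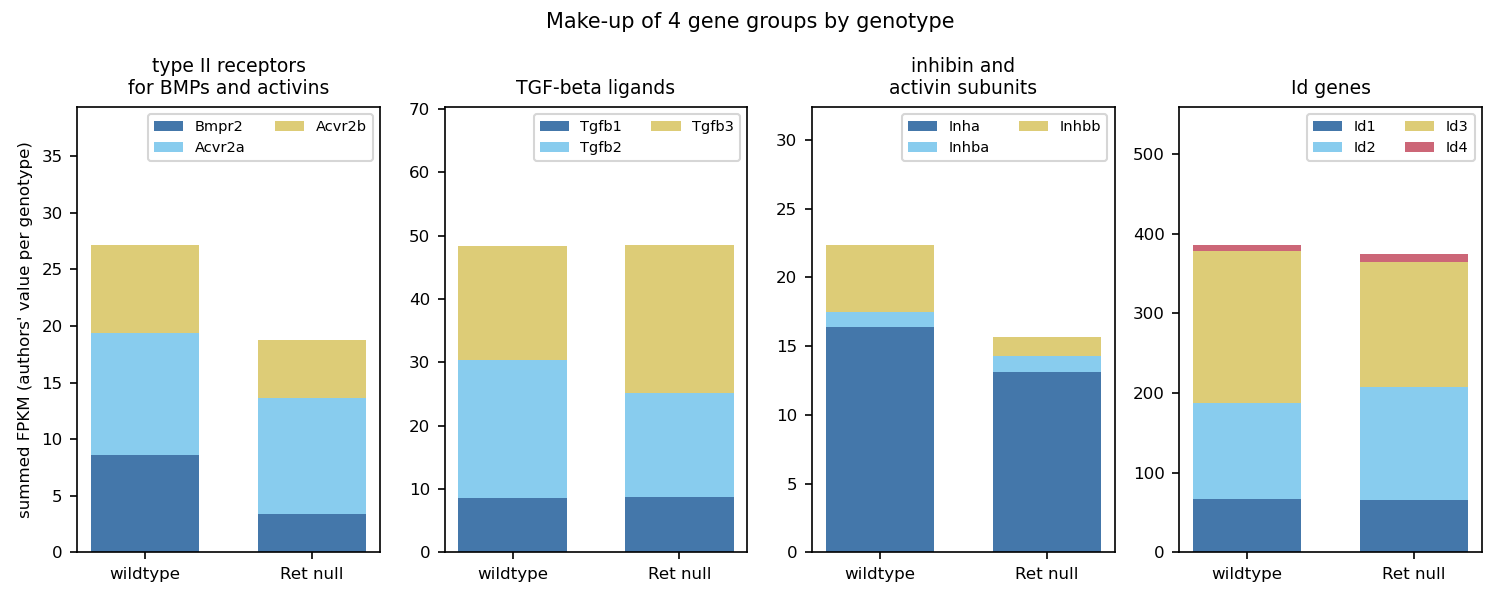
Summed FPKM per genotype, stacked by gene, for the type II receptors of BMPs and activins, the TGF-beta ligands, the inhibin and activin subunits and the Id genes, each on an axis of its own from 0. The receptor stack goes from 27.1 to 18.8 FPKM and the subunit stack from 22.3 to 15.6 FPKM, while the TGF-beta stacks (48.3 and 48.6 FPKM) differ in make-up and little in height.

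Beyond the members, 81 further genes of the pathway were listed, of which the authors tested 57. Of these 6 fell, 5 rose and 46 did not pass, which is 19.3% called beside the 14.6% of all tested lines. Among cytoplasmic mediators the BMP-responsive Smads differed in direction: Smad5, the most abundant of them, fell from 56.8 to 43.9 FPKM (-0.37 ± 0.18, q = 0.00566 in the authors' deposited table), and Smad9 rose from 3.11 to 4.26 FPKM (0.45 ± 0.25, q = 0.0190 in the authors' deposited table). Smad1 stood at 15.1 and 17.6 FPKM and did not pass. The Smad corepressor gene Skil fell from 14.1 to 9.40 FPKM (-0.58 ± 0.18). Of 18 Smads and intracellular regulators these 3 (16.7%) were the ones called, beside the 14.6% of all tested lines. Smad2, Smad3 and Smad4 had log2 fold changes of -0.18, -0.02 and -0.11.

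Outside the cell, Chrdl1, a chordin-like BMP antagonist, rose 2.49-fold to 4.98 FPKM (1.32 ± 0.30), and Bmper, a secreted BMP modulator, fell from 9.75 to 4.25 FPKM (-1.20 ± 0.24). Ltbp4, a latent TGF-beta binding protein of elastic fibres, rose from 26.2 to 45.2 FPKM (0.79 ± 0.18), and Pcsk6, a convertase that cleaves ligand precursors, fell from 7.03 to 3.60 FPKM (-0.96 ± 0.25). These were the 4 of 19 tested secreted proteins (21.1%) that passed, beside 14.6% of all tested lines. Rgma and Rgmb, the listed BMP co-receptors of the repulsive guidance family, rose. Rgma went from 13.8 to 19.8 FPKM (0.52 ± 0.20) and Rgmb from 11.2 to 16.7 FPKM (0.57 ± 0.20). Their receptor Neo1 stood at 42.2 and 42.9 FPKM. The line of Rgma overlaps that of A730056A06Rik. Skil and the 6 genes of the preceding sentences on secreted proteins and co-receptors had q = 0.000775 in the authors' deposited table. With p from the test statistic the calls of Smad5, Smad9, Rgma and Rgmb did not hold (adjusted p 0.371, 0.552, 0.151 and 0.0821), leaving 5 lower and 2 higher. Among 9 other tested target genes, Msx1 and Msx2 among them, 0 passed in the authors' test or with p from the test statistic, and 1 was lower and 0 higher at an unadjusted p under 0.05 in the authors' deposited table, beside the 13.5% and 9.91% of all tested lines.

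**Figure D5:**
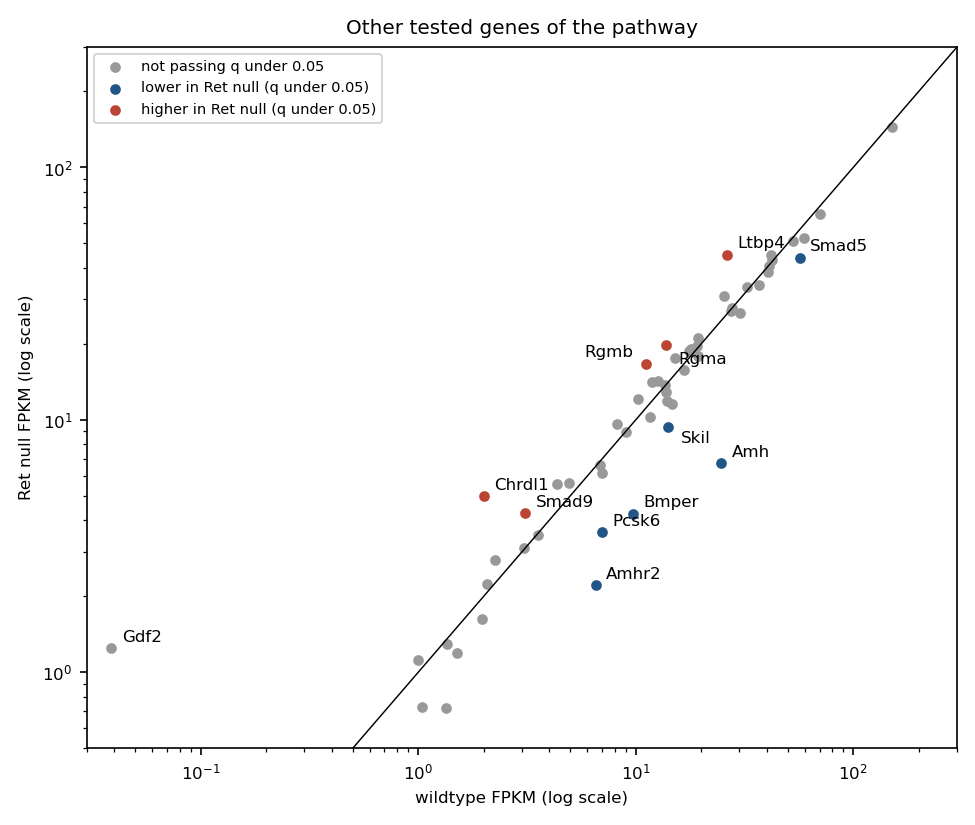
Ret null FPKM against wildtype FPKM (both log scales) for the 57 other tested genes of the pathway, with the line of equal values. The 6 fallers lie below the line and the 5 risers above it, and Gdf2, far to the left at 0.0389 FPKM in wildtype, did not pass.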

How the data were processed

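Illumina TruSeq libraries were prepared from oligo-dT selected RNA and read as 75 bp pairs, per the labels' protocols and series text. Per the submitters' processing notes, Picard, TopHat2, Cufflinks and Cuffdiff were used with build mm10. Versions, settings, annotation and strand use in counting are not stated in those sources. The values are FPKM, 1 per genotype, made by the authors from 3 samples each and deposited as 1 table in Cuffdiff's layout. Its columns name the genotypes w and h, read as wildtype and homozygous null. Per the file headers, the p-value and q-value columns and the test statistic, a score, come from the authors' own test. Nothing says that samples came from separate litters, so these p-values may measure technical spread only.

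A line that merged 2 records was dropped, leaving 23233, of which 13430 had been tested. Adjusting the deposited p-values by Benjamini-Hochberg gave the deposited q-values to within 5.94e-05. Log2 fold changes were recomputed from FPKM, and the implied standard error is the log2 fold change divided by the test statistic. With no value per sample, no test over replicates could be run and no counting interval can be given. The median implied standard error of the members was 0.22 (0.15 to 0.60). Starts in the file count from 0 and were raised by 1. The q threshold was 0.05. The alternative p came from the statistic as a normal deviate, over the 13422 tested lines that have one, and its adjustment was tested on simulated data. Python 3.11.15, NumPy 2.4.6, SciPy 1.17.1 and matplotlib 3.10.9 were used. All 37 members are named. Of the other pathway genes the called ones are named, up to 4 per class, with a few uncalled ones chosen after their values were seen. Xist, the Y-linked genes and Nr5a1 were also chosen so. Members and lists were chosen with earlier results of these data known.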

Additional observations from a re-analysis of the deposited data

How the results depend on the processing

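No paired analysis was possible because the table gives 1 value per genotype, and for the same reason leaving out a replicate was not run. Depth is unknown. The 5 lower members became 3 at q under 0.01, 2 with a 1.5-fold minimum and 2 with the normal-deviate p of the test statistic. Bmpr2 and Inhbb passed in all 3 of these settings. With a 5 FPKM minimum 4 were lower, without Inhbb, and 4 higher, without Bmpr1b. The 5 higher members became 2, 1 and 0, and Grem1 and Tgfb3 were the ones passing q under 0.01. Of the other pathway genes, the 5 higher became 3 with a 5 FPKM minimum, 2 with a 1.5-fold minimum and 2 with that p. The 6 lower ones stayed within 1.5 times that count under every alternative run, at 4 to 8. A threshold of 0.1, a 1 FPKM minimum and adjustment over lines at 1 FPKM or more left the members' counts at 5 and 5. The threshold of 0.1 and the 1 FPKM minimum could not have changed them. The lowest value of any member was 1.10 FPKM, and the smallest q of an uncalled member in the authors' deposited table was 0.111. Adding 0.1 or 1 FPKM, centring on the median of expressed lines (0.01) or equal upper quartiles (0.02) reversed 0 called genes. This outcome was fixed in advance and does not show stability. A constant added to both values cannot change a direction, and the 2 shifts are below the smallest log2 change of a called member (0.29). With 1 FPKM added, the log2 fold changes of Inhbb and Chrdl1 moved by more than their errors, that of Inhbb to -1.29.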

Other observations

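Genes of the anti-Müllerian hormone branch of the family, which acts in the gonads and their ducts, fell together with Inhbb. Amh, the hormone gene, went from 24.7 to 6.75 FPKM (log2 fold change -1.87 ± 0.27), and Amhr2, its type II receptor, from 6.55 to 2.22 FPKM (-1.56 ± 0.37), each with q = 0.000775 in the authors' deposited table. The Amh line begins just after the end of Sf3a2, a splicing factor gene that stood at 39.2 and 46.5 FPKM and did not pass. Nr5a1, a transcription factor gene of the gonadal ridge and adrenal that activates Amh, fell from 11.1 to 3.52 FPKM (-1.66 ± 0.28) with the same q in the authors' deposited table. Inhbb itself is made in gonads. All 6 tested nephric and gonadal ridge markers fell in this comparison (4 with p from the test statistic). Xist and the Y-linked genes also differed between the genotypes. The part of either in these values was not tested. Nr5a1 was chosen after its value was seen, and a link between its fall and that of Amh was not tested.

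Gdf2, or BMP9, a ligand made by liver that acts on endothelium, went from 0.0389 to 1.25 FPKM, with a log2 error of 1.73, and did not pass, with q = 0.104 in the authors' deposited table. Its type I receptor gene Acvrl1 stood at 9.06 and 8.95 FPKM, and the endothelial co-receptor gene Eng at 18.0 and 19.1 FPKM on a line that overlaps Fpgs. Neither of these receptor genes passed. All 10 hepatic markers rose in the same comparison.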
